A study of Homo sapiens with 6 samples.

Results

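Metallothioneins are small, cysteine-rich proteins that bind zinc and copper in cells and also take up cadmium and other toxic metals. Their genes are switched on when the zinc-sensing transcription factor MTF1 binds short metal response elements in their promoters, and glucocorticoids and oxidative stress also raise them. Most of the human genes lie side by side in a cluster on chromosome 16. Prostate tissue is known for its high zinc content, which makes this family of interest there.

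The members described here are the 10 genes that the array names MT1A, MT1B, MT1E, MT1F, MT1G, MT1H, MT1L, MT1M, MT1X and MT2A. They are 10 of 43317 gene or transcript names with a probe. Every probe carrying one of these names was taken, whatever its values, which gave 13 of the 58201 gene probes on the array. Of these, 11 probes for 9 genes were tested, out of 27503 tested probes in all. Testing required 3 or more of the 6 arrays with a signal well above background, in Cy3 or Cy5. The members left out were 1 of the 3 MT1E probes (A_23_P420942), well above background on none of the 6 arrays in either dye, and the MT1H probe, well above background on 1 of 6 arrays in Cy5 and on none in Cy3.

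All RNA came from 22RV1, an established prostate cancer cell line that makes the secreted trypsin inhibitor SPINK1, carried in RPMI medium with serum, antibiotics and puromycin. Stable lines held a lentiviral vector for miR-338-5p (pLemiR-338-5p), for miR-421 (pLemiR-421) or, as the control, for a red fluorescent protein (pLemiR-RFP). Each of 6 two-colour Agilent arrays set the RNA of a miRNA line in Cy5 against control RNA in Cy3, with 3 arrays for miR-338-5p (replicates 1, 2 and 3) and 3 for miR-421 (replicates 1 and 2, and a sample labelled a pool). The labels do not say what was pooled or whether the replicates were separate cultures, so p-values measure only the spread between these samples, which may be technical. All values below are log2 ratios of the miRNA line over control unless a dye is named, so a value of 1 is a doubling and a negative value a lower signal in the miRNA line. No dyes were swapped, so a dye bias of a probe would enter both comparisons with control. The labels do not say whether the control RNA came from 1 culture; if so, spread between control cultures is not measured here.

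Of 10 markers of luminal prostate epithelium, 10 were well above background in the control dye on all 6 arrays. The targeted gene, SPINK1, lay at -3.04, -2.10 and -6.78 on the miR-338-5p arrays and at -7.01, -6.68 and -6.15 on the miR-421 arrays. In Cy3, 47.3% to 47.9% of gene probes were well above background on the miR-338-5p arrays. On the miR-421 arrays it was 44.3% to 44.4%, with no overlap between the groups. In Cy5 it was 41.9% on miR-421 replicate 1 and 46.8% to 48.3% on the other arrays. All arrays were on 1 slide, and 0 spots were saturated.

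The mature sequences of the overexpressed miRNAs, from RefSeq (GRCh38.p14), are shown because they define the groups, with the seed, bases 2 to 8, in capitals.
hsa-miR-338-5p: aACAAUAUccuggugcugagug
hsa-miR-421: aUCAACAGacauuaauugggcgc
The letters that pair with these seeds, ATATTGT for miR-338-5p and CTGTTGA for miR-421, were in 0 of the 13 member probes. They were in 0.478% and 0.558% of all 58201 probes. Probes cover only a short stretch of each transcript, and the rest of the transcripts was not searched here.

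Metallothionein transcripts are much alike, so the probe sequences bear on how far a signal can be given to 1 gene. The probes below, of 60 bases each in the scanner files, are shown as 30 bases, or in full for MT1A and MT1HL1, with the longest run shared with a probe of another metallothionein gene in capitals.
MT1E (A_23_P206724): tgcagCTGCTGTGCCTGATGTGGGaacagc
MT1L: CTGCTGTGCCTGATGTGGGgacagacctgc
MT1B (A_23_P37983): agtgccGCTGCTGTGCCTGATGTtgggaga
MT2A: ctttttctatgaaataatgtGAATGATAAT
MT1M: gcatttctttttATGTTAAatatgtgagtg
MT1E (A_21_P0000671): atagaacaacctgcacAACCTGGATTTTTT
MT1F: cctttCTCCCAGATGTAAACAGAGagacat
MT1X: tagagcaacctatatAAACCTGGATTTTTT
MT1A: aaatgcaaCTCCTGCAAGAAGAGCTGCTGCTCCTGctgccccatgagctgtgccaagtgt
MT1HL1: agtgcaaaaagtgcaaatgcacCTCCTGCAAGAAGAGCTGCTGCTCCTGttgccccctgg
The MT1E, MT1L and MT1B probes share the stretch CTGCTGTGCCTGATGT, and the MT1E and MT1L probes share a run of 19 bases. The MT1A and MT1HL1 probes share 27 bases of tgc-rich coding sequence. The MT1B probe A_22_P00010235, not printed, matches the MT1HL1 probe at 33 of 36 overlapping bases, with a run of 15. The MT2A and MT1M probes share with other members no run that long: the MT2A run of 10 bases is shared with MT1DP, and the MT1M run of 7 with MT1E. By the RefSeq accessions that the files list, the MT1A probe also matches MT1M, and the MT1E probe A_21_P0000671 also matches MT1JP and MT1M. The other tested member probes list 1 gene each. The member probes lie between bases 56643332 and 56718021 of chromosome 16 (hg19), a span of 74.7 kb, from MT2A at chr16:56643332-56643391 to MT1X at chr16:56717962-56718021. The MT1A probe aligns over 604 bases, chr16:56673205-56673808, more than its own 60.

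In the miR-421 cells, the mean signals of MT2A, MT1L, MT1E, MT1M and MT1B were about double those of the control, but of these only 1 MT1B probe passed the threshold. MT1A was higher by a smaller amount and passed. In the miR-338-5p cells, MT2A, MT1L, MT1E, MT1M and MT1B were low on replicate 2, high on replicate 3 and in between or low on replicate 1, while MT1A was above control on all 3 arrays. MT1X, MT1G and MT1F did not share these patterns. The median over the 9 tested genes, with the brightest probe of each, was 0.92 for miR-421, against 0.00 over all tested probes. For miR-338-5p it was -0.11, against -0.00 over all tested probes.

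**Figure D1:**
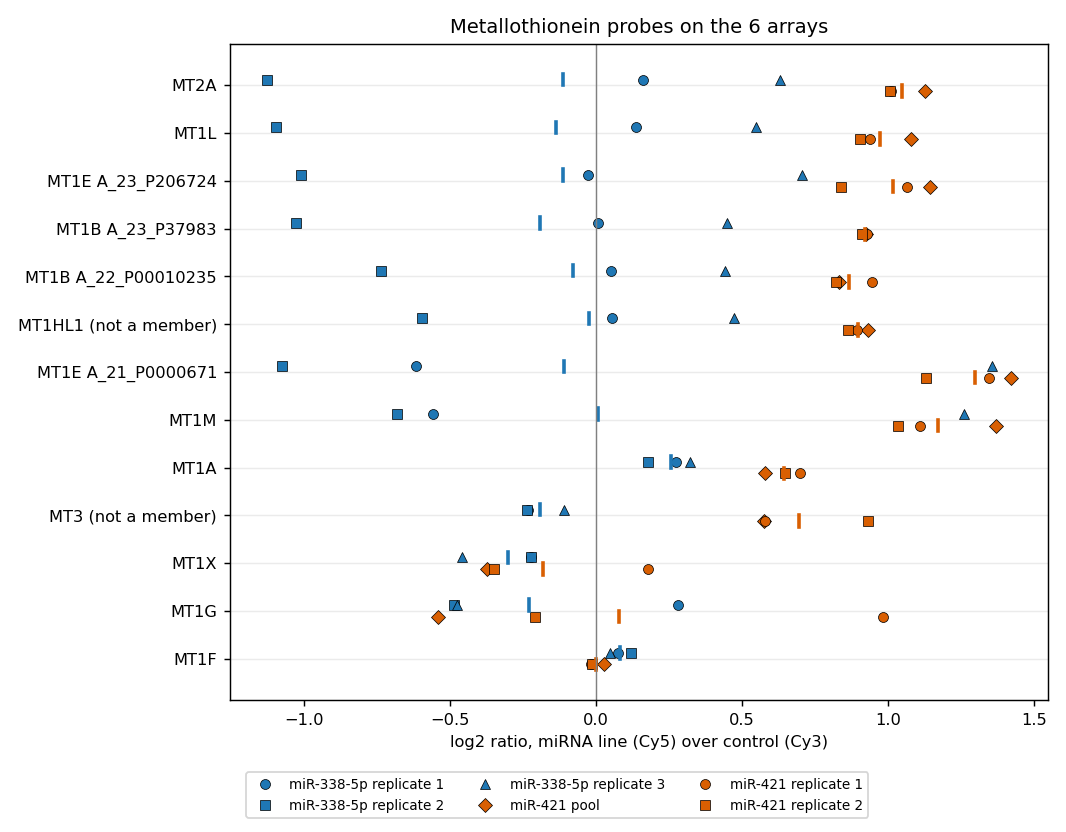
Log2 ratio of the miRNA line (Cy5) over control (Cy3) on the x axis for the 11 tested member probes and 2 other metallothioneins; each symbol is 1 of the 6 arrays and each short bar a mean of 3. For MT2A the miR-421 arrays sit at 1.01 to 1.13, and the miR-338-5p arrays spread from -1.13 to 0.63.

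MT2A encodes the metallothionein that many tissues use as their general zinc and copper store. Its ratio was 1.13, 1.01 and 1.01 on the miR-421 pool, replicate 1 and replicate 2, and 0.16, -1.13 and 0.63 on the miR-338-5p replicates 1, 2 and 3. The miR-421 arrays lay close together and above all 3 miR-338-5p arrays, which spread on both sides of 0. The mean for miR-421 was 1.05 ± 0.07 (SD, n = 3), a 2.07-fold higher signal, with a 95% interval of 0.30 to 1.80 from limma and an adjusted p of 0.0577, which missed the threshold of 0.05. The mean for miR-338-5p was -0.11 ± 0.91 (SD, n = 3; limma adjusted p = 0.861). The fit pools the spread of both groups, so the wide interval of the miR-421 mean holds the spread of the miR-338-5p arrays as well. Fitted on its own 3 arrays, the miR-421 ratio of MT2A had an adjusted p of 0.0126.

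MT1L is listed as a transcribed pseudogene of the cluster. It lay at 1.08, 0.94 and 0.91 on the miR-421 arrays and at 0.14, -1.09 and 0.55 on the miR-338-5p arrays, in the order of arrays given for MT2A. Array by array it followed MT2A, with a Pearson correlation of 0.9996 over the 6 arrays. Its miR-421 mean was 0.97 ± 0.09 (SD, n = 3; limma adjusted p = 0.0599).

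MT1E and MT1B are metallothionein-1 isoform genes of the same cluster. The MT1E probe A_23_P206724 read 1.14, 1.07 and 0.84 on the miR-421 arrays and -0.03, -1.01 and 0.70 on the miR-338-5p arrays. The MT1B probe A_23_P37983 read 0.93, 0.93 and 0.91 with miR-421 and 0.01, -1.03 and 0.45 with miR-338-5p. The second MT1B probe, A_22_P00010235, read 0.83, 0.95 and 0.82 with miR-421 and 0.05, -0.73 and 0.44 with miR-338-5p. On all 3 probes the miR-421 arrays lay above the miR-338-5p arrays with no overlap. In the miR-421 comparison the adjusted p from limma was 0.0562 for the MT1E probe and 0.0507 for the first MT1B probe. The second MT1B probe, which matches the MT1HL1 probe at 33 of 36 overlapping bases, passed the threshold. Its 3 miR-421 arrays averaged 0.87 ± 0.07 (SD), with a limma adjusted p of 0.0344. That call held under 9 of 15 alternative settings; it was lost with median centring (adjusted p = 0.0848), with no filter (0.0714), without miR-338-5p replicate 1 (0.06) and without any one miR-421 array (0.101 to 0.129).

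MT1M and the second tested MT1E probe, A_21_P0000671, which also lists MT1M, formed a variant of that pattern. MT1M read 1.37, 1.11 and 1.04 on the miR-421 arrays and -0.56, -0.68 and 1.26 on the miR-338-5p arrays. The MT1E probe A_21_P0000671 read 1.42, 1.35 and 1.13 with miR-421 and -0.61, -1.07 and 1.36 with miR-338-5p. On both probes miR-338-5p replicate 3 fell within the range of the miR-421 arrays, and replicates 1 and 2 lay below control, so the groups overlapped. The correlation between these 2 probes over the 6 arrays was 0.99, against 0.95 between A_21_P0000671 and the other tested MT1E probe, with which it shares 28 bases. On replicate 1 of miR-338-5p the MT1E probes differed, at -0.61 and -0.03. The miR-421 means were 1.17 ± 0.18 for MT1M and 1.30 ± 0.15 for A_21_P0000671 (SD, n = 3 each), with limma adjusted p-values of 0.0693 and 0.0812.

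MT1A, another metallothionein-1 isoform gene, was the member that passed in both comparisons with control. It lay at 0.58, 0.70 and 0.65 on the miR-421 arrays and at 0.27, 0.18 and 0.32 on the miR-338-5p arrays. All 6 arrays were above control and the groups did not overlap. The miR-421 mean was 0.64 ± 0.06 (SD, n = 3), a 1.56-fold higher signal (limma adjusted p = 0.00329). The miR-338-5p mean was 0.26 ± 0.07 (SD, n = 3), 1.20-fold (limma adjusted p = 0.0427). The miR-421 call held under 17 of 17 alternative settings. The miR-338-5p call held under 4 of 17, with adjusted p-values from 0.0361 to 0.27. In the difference of the miRNAs MT1A was -0.38, with a 95% interval of -0.57 to -0.19 and a limma adjusted p of 0.148.

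MT1X, MT1G and MT1F did not follow MT2A. MT1X and MT1G were dim. Their Cy5 signals less local background were 54 to 85 and 52 to 141, against 4579 to 19896 for MT2A. MT1M, which varied more like MT2A, was dim too, at 44 to 399 in Cy5. In Cy3 it was at 100 to 146, where MT1X was at 101 to 129 and MT1G at 83 to 128. MT1X read -0.37, 0.18 and -0.35 on the miR-421 arrays and -0.22, -0.22 and -0.46 on the miR-338-5p arrays. MT1G read -0.54, 0.98 and -0.21 with miR-421 and 0.28, -0.49 and -0.47 with miR-338-5p. Replicate 1 of miR-421 was the highest array for both genes, the correlation between them was 0.90 over 6 arrays, and their correlations with MT2A were 0.02 and 0.26. Neither passed the threshold: the adjusted p from limma was 0.333 for MT1X and 0.882 for MT1G with miR-421, and 0.18 and 0.696 with miR-338-5p. With median centring MT1X passed as lower in both comparisons, at -0.28 with miR-421 and -0.46 with miR-338-5p (limma adjusted p = 0.0358 and 0.0246).

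MT1F was dim, well above background on 4 of 6 arrays in Cy3 and 5 of 6 in Cy5. Its ratios ran from -0.02 to 0.12 over the 6 arrays, and with miR-421 its mean was -0.00 ± 0.02 (SD, n = 3). The MT1H probe was well above background in Cy5 only on miR-421 replicate 1, where it read 0.23, and its ratios on the other 5 arrays ran from -0.10 to -0.01. That is the array on which MT1G and MT1X were highest. It also had the lowest share of gene probes well above background in Cy5 (41.9%). Whether that has a part in the values of these dim probes was not tested.

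With the threshold applied over all probes, 2 of the 11 member probes were higher with miR-421, MT1A and 1 MT1B probe, where 21.6% of all tested probes were called in either direction and 9.19% as higher. With miR-338-5p, 1 of the 11 passed, MT1A, against 9% of all tested probes. In the difference of the miRNAs 0 of the 11 passed in limma, against 0.0473% of all tested probes. At an unadjusted p below 0.05, 6 of the 11 differed between the miRNAs, against 13.7% of all tested probes. The 3 miR-421 arrays lay above the 3 miR-338-5p arrays with no overlap for 6 of the 11 member probes, against 9.73% of all tested probes measured on every array. They lay below for 1 of the 11, MT1F, against 10.1%. With miR-421, 8 of the 11 were above control on all 3 arrays, against 28.8% of all tested probes, and with miR-338-5p 2 of the 11, against 23.3%. The comparisons with control share a pooled spread, so they are not independent of each other. If the control RNA came from 1 culture, they share that too. The member probes are not independent of each other either. Those of MT2A, MT1L, MT1B and MT1E (A_23_P206724) correlated at 0.987 to 0.9996 over the 6 arrays. Counts of member probes, here and below, are therefore not counts of separate signals.

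The number called with miR-421 depended on how the spread was estimated and on which arrays were in the fit. On the miR-421 arrays alone, 8 of the 11 passed in limma, against 14.5% of all tested probes, and on the miR-338-5p arrays alone 0 of the 11, against 0.778% (2 of the 11 at an unadjusted p below 0.05, against 25.8%). Without miR-338-5p replicate 3 the miR-421 count was 8, without replicate 2 it was 6, and without replicate 1 it was 1. It was 1 without any one of the miR-421 arrays. The miR-338-5p count was 0 without any one array except miR-421 replicate 1, without which it was 2.

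The spread itself differed between the groups. The median SD over 3 arrays was 0.758 for the 11 member probes with miR-338-5p and 0.0927 with miR-421, where all tested probes had medians of 0.136 and 0.135. Both dyes were then read apart, as normalised log2 signals of each channel. The median SD over the 6 arrays was 0.0794 in Cy3 and 0.746 in Cy5 for the member probes, against 0.0687 and 0.19 for all tested probes. By these medians the member probes varied more in the channel with the miRNA lines than in that with the control. MT1L, for example, had Cy3 signals of 10.90 to 11.08 and Cy5 signals of 9.87 to 11.99. MT2A varied most in Cy3. Its control signal was 13.35, 13.29 and 13.12 on the miR-338-5p arrays and 12.77, 12.97 and 12.76 on the miR-421 arrays, with no overlap. Its Cy5 signal was 13.51, 12.17 and 13.74 on the miR-338-5p arrays and 13.89, 13.98 and 13.76 on the miR-421 arrays. In Cy5 alone, miR-338-5p replicate 3 thus lay just below miR-421 replicate 2. The gap between the groups in the MT2A ratio holds a difference in the control signal as well. The Cy3 signals of the MT1B probe A_22_P00010235 (9.26 to 9.37 and 9.41 to 9.54) and of MT1M (7.37 to 7.41 and 7.28 to 7.36) did not overlap either. For these single-dye values the distribution of mean brightness was made equal across arrays. Fewer cells with a transcript and less transcript per cell cannot be told apart in such bulk RNA.

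**Figure D2:**
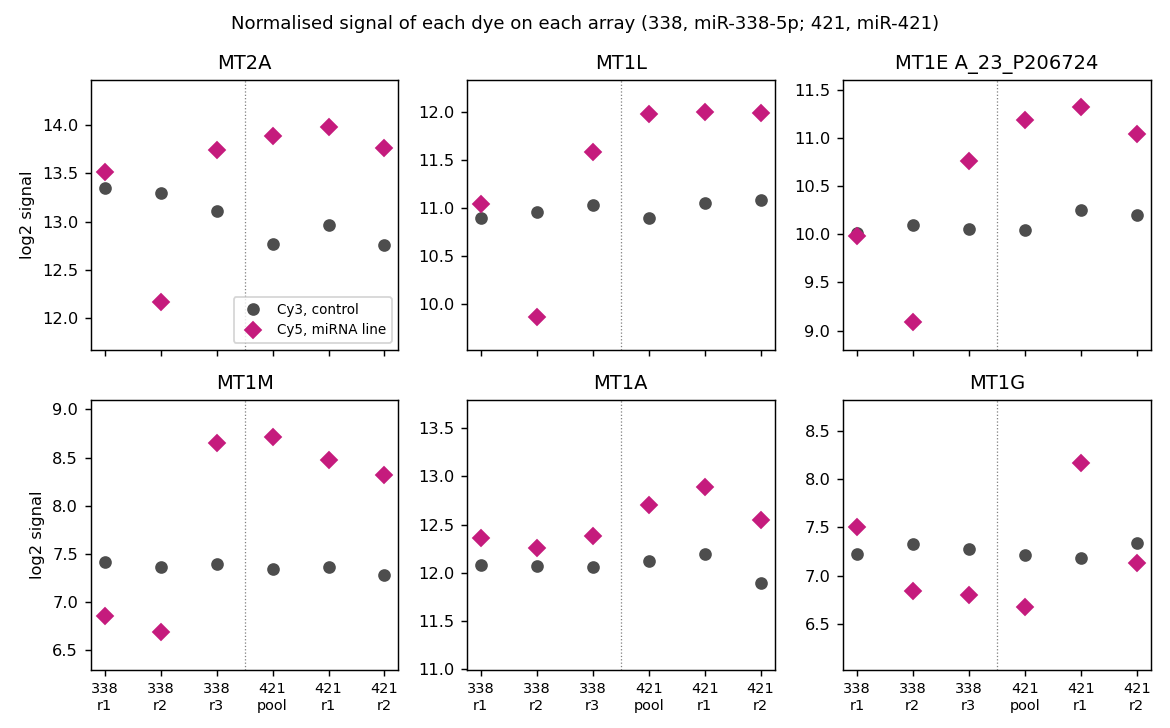
Normalised log2 signal of Cy3 (control, circles) and Cy5 (miRNA line, diamonds) on the y axis for each of the 6 arrays on the x axis, for 6 member probes, each panel spanning the same number of log2 units. For MT1L the Cy3 points stay between 10.90 and 11.08, and the Cy5 point of miR-338-5p replicate 2 lies lowest at 9.87.

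SPINK1 varied over the same miR-338-5p arrays, lowest relative to control on replicate 3 (-6.78), where the MT2A group was highest, and least reduced on replicate 2 (-2.10), where that group was lowest. Whether SPINK1 or the degree of miRNA overexpression has a part in the metallothionein values was not tested. Of the other cell types checked, 1 of 4 tested fibroblast markers (LUM) rose with miR-421, against 9.19% of all tested probes. In Cy3, 3 of 6 fibroblast and 2 of 3 endothelial markers were well above background on all 6 arrays. So were 4 of the 4 leukocyte markers with a probe. COL1A2, COL3A1 and PECAM1 were well above background in Cy3 on 0 of 6 arrays. The summed Cy5 signal of the 4 fibroblast probes was 256 to 696 on the miR-338-5p arrays and 584 to 1411 on the miR-421 arrays. For the 10 luminal prostate probes it was 40623 to 45658 and 42446 to 62279, and for the 4 leukocyte probes 359 to 413 and 451 to 493. The part of these markers in the metallothionein values was not tested.

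Probes that share sequence and probes that do not were both found among the closely matching pairs. Among the 53 pairs of tested member probes of different genes, 10 had a correlation of at least 0.95 over the 6 arrays. The longest run shared within those 10 pairs ranged from 5 to 19 bases. MT2A and MT1B (A_23_P37983), for example, share at most 5 bases in a row and correlated at 0.996. MT1F was near background and its ratios spanned little, so its pairs say little about shared sequence. Of the 53 pairs, 6 share at least 15 bases in a row. Those with MT1F correlated at -0.90 to -0.27. The other 3 correlated at 0.988 to 0.995, but all lie among the MT1E, MT1L and MT1B probes, over the stretch they have in common. Of the 43 pairs without MT1F, 40 share fewer bases in a row, and 7 of these reached 0.95. These correlations describe 6 arrays that all carry control RNA in Cy3, and they compare probe with probe. Binding of a probe to the transcript of another gene, MT1E, MT1L and MT1B included, was not tested.

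**Figure D3:**
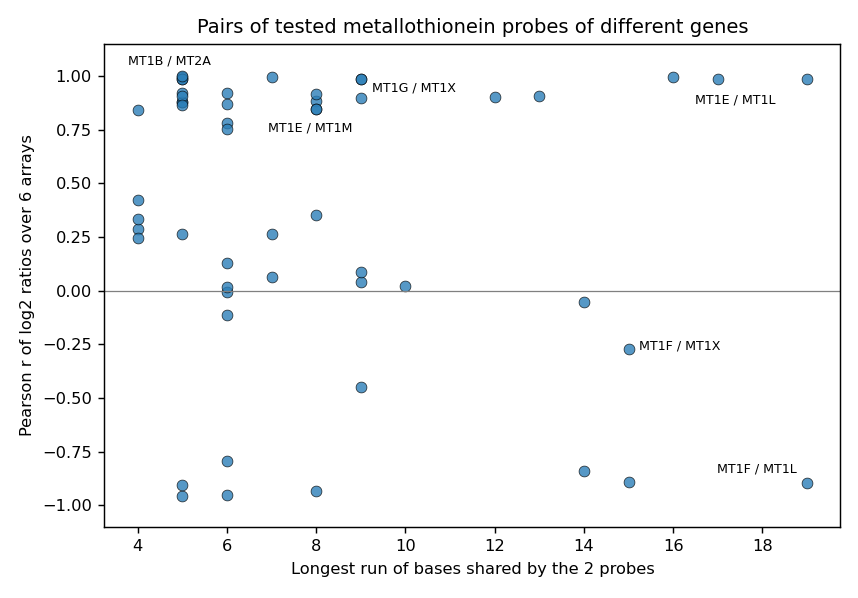
Each of the 53 pairs of tested member probes of different genes, with the longest run of bases the probes share on the x axis and the Pearson correlation of their log2 ratios over 6 arrays on the y axis. Pairs near 1 occur at shared runs from 5 to 19 bases; the points below -0.2 all involve MT1F, which was near background.

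Of the metallothionein genes outside the 10 members, MT3 and MT1HL1 were higher with miR-421. MT3, known as the metallothionein of the brain, read 0.58, 0.58 and 0.93 on the miR-421 arrays and -0.23, -0.24 and -0.11 on the miR-338-5p arrays. Its groups lay on opposite sides of 0. The miR-421 mean was 0.70 ± 0.20 (SD, n = 3; limma adjusted p = 0.00725) and the difference of the miRNAs was -0.89 (95% interval -1.18 to -0.59; limma adjusted p = 0.0774). MT1HL1, a metallothionein-1 gene whose probe lies on chromosome 1 and also lists MT1H, read 0.93, 0.89 and 0.86 with miR-421 and 0.06, -0.60 and 0.47 with miR-338-5p. Its miR-421 mean was 0.90 ± 0.03 (SD, n = 3; limma adjusted p = 0.0242). The MT1H probe itself stayed at background on 5 of 6 arrays. MT1IP was near background, with ratios from -0.04 to 0.04, and MT4 and both MT1DP probes were well above background on 0 of 6 arrays.

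By Pearson correlation, the 5 non-member genes most like the mean of the tested members over the 6 arrays were MT1HL1 (r = 0.99), AKR7L (0.99), ACSL1 (0.98), TSKU (0.98) and OBSL1 (0.97), out of 1484 genes that varied at least as much as that mean. Of those 1484 genes, 13 had a correlation of 0.95 or more. ACSL1, which activates long-chain fatty acids, read 1.32, 1.32 and 1.32 with miR-421 and 0.17, -0.65 and 0.79 with miR-338-5p. AKR7L, an aldo-keto reductase family gene, read 1.32, 1.85 and 1.38 with miR-421 and 0.54, -0.45 and 0.78 with miR-338-5p. Both showed the low replicate 2 and high replicate 3 of miR-338-5p seen for MT2A. This follows from their choice by correlation over these same arrays and is not a separate result.

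The cluster's neighbours on chromosome 16 were summarised by group means only, so their pattern from array to array was not examined. Between the outermost member probes or within 500 kb of them lay 20 tested probes with 16 other gene or transcript names. Metallothioneins were left out by name only. Unnamed transcripts with probes starting at bases 56643472 and 56682743 lie inside the cluster, so the set is not made of flanking genes alone. The median of the 20 probes was 0.10 with miR-421 and -0.02 with miR-338-5p. With miR-421, 4 of the 20 passed as higher and 1 as lower, against 21.6% of all tested probes in either direction and 9.19% as higher. With miR-338-5p, 2 passed as higher and 1 as lower, against 9% in either direction. A regional effect was not tested.

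The promoters in the reference table allow the metal response element core to be looked for in 4 of the 10 members. The letters searched were TGCACNC and TGCGCNC on both strands, in the 250 bases before the start of the gene (RefSeq, GRCh38.p14), with every match in capitals; none of the printed matches overlap.
MT2A (chr16:56608334-56608583, plus strand): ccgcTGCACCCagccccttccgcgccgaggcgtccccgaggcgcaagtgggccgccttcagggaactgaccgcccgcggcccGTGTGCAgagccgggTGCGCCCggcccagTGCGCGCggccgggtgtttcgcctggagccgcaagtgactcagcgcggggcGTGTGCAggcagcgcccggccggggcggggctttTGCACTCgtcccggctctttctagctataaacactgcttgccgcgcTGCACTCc
MT1B (chr16:56651636-56651885, plus strand): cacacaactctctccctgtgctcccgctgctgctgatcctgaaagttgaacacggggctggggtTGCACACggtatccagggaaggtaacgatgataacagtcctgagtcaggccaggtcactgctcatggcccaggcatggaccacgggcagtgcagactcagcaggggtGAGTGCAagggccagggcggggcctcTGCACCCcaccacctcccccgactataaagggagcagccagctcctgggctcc
MT1X (chr16:56682220-56682469, plus strand): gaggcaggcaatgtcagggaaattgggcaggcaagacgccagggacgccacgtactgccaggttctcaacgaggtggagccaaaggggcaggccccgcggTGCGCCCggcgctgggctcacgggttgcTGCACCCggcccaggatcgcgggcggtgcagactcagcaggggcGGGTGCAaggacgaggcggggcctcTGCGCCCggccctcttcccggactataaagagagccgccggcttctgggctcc
The MT2A promoter held 7 matches, MT1B 3, MT1X 4 and MT1H, not printed, 8. Of 35116 promoters in the table, 24.8% held at least 1 match and 1.58% at least 3. Whether these matches have a part in the metallothionein values was not tested. A match is a run of letters, not a measured site.

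The genes that handle metals alongside metallothioneins were taken as a list of 58, of which 55 had a tested probe. With miR-421, 6 rose and 9 fell, 27.3% of the 55, against 21.6% of all tested probes. With miR-338-5p, 4 rose and 5 fell, 16.4%, against 9%. In the difference of the miRNAs 0 of the 55 passed in limma, against 0.0473%, and 5 had an unadjusted p below 0.05, against 13.7% of all tested probes. The list medians were -0.09 with miR-421 and -0.15 with miR-338-5p, so the list as a whole did not sit at the level of the metallothioneins. With median centring 3 rose and 6 fell with miR-421, and 0 rose and 3 fell with miR-338-5p. Without miR-421 replicate 2, the counts were 2 with miR-421 and 2 with miR-338-5p. Without replicate 1 of miR-421 they were 7 and 12, and without the pool 8 and 3. The miR-338-5p count was also 2, 3 and 1 without miR-338-5p replicates 1, 2 and 3.

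MTF1, the factor that binds the metal response elements, was at -0.31 ± 0.29 with miR-421 and -0.14 ± 0.19 with miR-338-5p (SD, n = 3 each), with limma adjusted p-values of 0.128 and 0.541. SLC30A1, the zinc exporter that MTF1 also drives, was at -0.15 ± 0.10 and -0.13 ± 0.16 (SD, n = 3 each; limma adjusted p = 0.211 and 0.35). Neither passed the threshold, and neither had the miR-421 level of MT2A.

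Of the 22 tested zinc genes, 1 rose and 2 fell with miR-421 (13.6%, against 21.6% of all tested probes), and 2 rose and 1 fell with miR-338-5p (13.6%, against 9%). SLC39A8, an importer of zinc, manganese and cadmium, read -1.64, -1.61 and -2.16 on the miR-421 arrays and -0.08, 0.19 and 0.33 on the miR-338-5p arrays. Its groups did not overlap. Its miR-421 mean was -1.81 ± 0.31 (SD, n = 3; limma adjusted p = 0.00274), a second probe of the gene read -0.43, and the difference of the miRNAs had an adjusted p of 0.0559. The zinc transporter SLC39A13 rose in both, by 0.42 with miR-421 and 0.57 with miR-338-5p (limma adjusted p = 0.0232 and 0.0198). SLC30A2, a zinc exporter into vesicles, rose by 0.40 with miR-338-5p (limma adjusted p = 0.0478). SLC39A10, a zinc importer, was at -0.63 with miR-421 and -0.57 with miR-338-5p and passed in both (limma adjusted p = 0.0214 and 0.0437); it completes the counts and was named after its values were seen.

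Of the 11 iron genes, 3 fell with miR-421 and 3 with miR-338-5p, and 0 rose. That is 27.3% of the group in each comparison, against 21.6% of all tested probes with miR-421 and 9% with miR-338-5p. TFRC, the transferrin receptor that brings iron into cells, read -2.39, -2.48 and -2.55 with miR-421 and -2.33, -1.77 and -1.85 with miR-338-5p. Both means, -2.47 and -1.99, passed the threshold (limma adjusted p = 0.00139 and 0.00376). SLC40A1, the iron exporter ferroportin, fell with miR-421 to -0.87 (adjusted p = 0.0123), and SLC11A2, an iron importer, and ACO1, an iron regulatory protein, fell with miR-338-5p to -0.76 and -0.58 (adjusted p = 0.0414 and 0.0454). SLC11A2 also fell with miR-421, to -0.59 (limma adjusted p = 0.0488). A second SLC11A2 probe read -0.08 with miR-421 and -0.12 with miR-338-5p. The other 7 of the 11 passed in neither comparison.

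Of the 8 copper genes, 3 rose and 1 fell with miR-421 (50%, against 21.6% of all tested probes), among them the copper importer SLC31A1 at 0.69 and the copper-handling factor COMMD1 at 0.55 (limma adjusted p = 0.0274 and 0.0236). With miR-338-5p 0 of the 8 passed, against 9%. Of the 8 oxidant and metal response genes, 3 fell with miR-421 (37.5%, against 21.6%) and 1 with miR-338-5p (12.5%, against 9%), and 0 rose in either. HSPA1A, a heat shock protein that cadmium induces, fell to -1.16 with miR-421 and -2.36 with miR-338-5p (limma adjusted p = 0.0439 and 0.0144). Of the 6 glucocorticoid-induced genes, 2 rose in both, 33.3% against 21.6% with miR-421 and 9% with miR-338-5p: DUSP1, a phosphatase of MAP kinases, to 1.56 and 1.33, and TSC22D3, a glucocorticoid-induced leucine zipper protein, to 1.55 and 1.36 with miR-421 and miR-338-5p. Their limma adjusted p-values were 0.021 and 0.04998 for DUSP1 and 0.0109 and 0.0264 for TSC22D3. FKBP5, the other classical member of that group, was at -0.88 and -1.31 and did not pass (limma adjusted p = 0.126 and 0.0723). It was named after its values were seen.

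**Figure D4:**
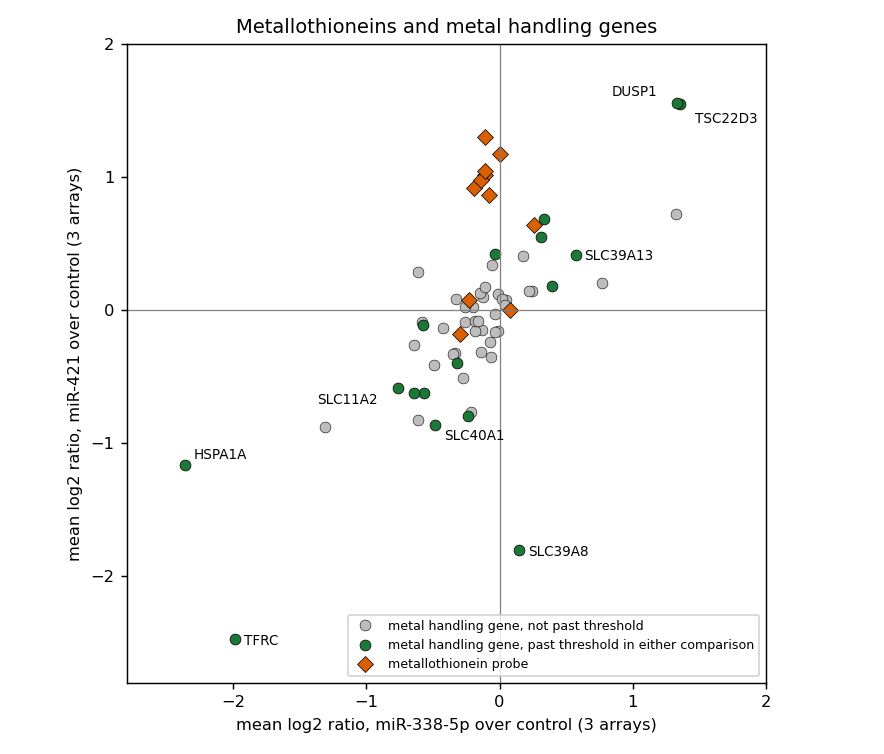
Mean log2 ratio over 3 arrays with miR-338-5p (x axis) and with miR-421 (y axis) for the 55 tested metal handling genes (circles, green where past the threshold in either comparison) and the 11 tested metallothionein probes (diamonds). Of the metallothionein probes, 8 lie above 0.6 on the y axis and within 0.3 of 0 on the x axis, TFRC lies at -1.99 and -2.47, and SLC39A8 at 0.15 and -1.81.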

How the data were processed

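The members and gene lists were chosen with earlier results of these data known. The deposited intensity values are, per the file headers, each spot's mean and its local background median, without normalization, as read by Feature Extraction 11.5.1.1. Its deposited log10 ratio and the authors' whole-series table of log2 ratios, whose normalization is not given in the sources used here, served as alternatives; both put Cy5 over Cy3. From the intensities, background was corrected by normexp (offset 50) and each array normalized by loess; control spots had no weight, spots marked as outliers were left out, and spots of a probe were averaged. In R 4.3.3 with limma 3.58.1, 1 fit of group means held all 6 arrays; variances were moderated by eBayes (2.05 prior degrees of freedom), with two-sided tests and Benjamini-Hochberg adjustment over all tested probes at 0.05. Single-dye signals were quantile normalized on mean brightness (limma's Aquantile). The number of arrays limits precision. A gene in a list is given by its brightest tested probe, and lists by counts and medians.

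All members and the other metallothionein genes with a probe were named. Of the metal handling list, MTF1 and SLC30A1 were named, with the 4 largest rises and 4 largest falls past the threshold on all 3 arrays of a group. The most alike genes had the highest Pearson correlation with the mean of the tested members. Probe names and coordinates (hg19) are those of the array; promoters and miRNAs are from RefSeq (GRCh38.p14). Of the 10 members, 4 had a promoter entry. The fit was tested on simulated data. Calls of single neighbouring genes and of single leukocyte markers are not reported here.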

Additional observations from a re-analysis of the deposited data

Results flagged for a closer look

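MT3 was set apart because its 3 miR-338-5p arrays lay below control (-0.23, -0.24 and -0.11) and its 3 miR-421 arrays above (0.58, 0.58 and 0.93). The difference, miR-338-5p minus miR-421, was -0.89, and its limma adjusted p of 0.0774 missed the threshold.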

How the results depend on the processing

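Under every alternative run the difference of the miRNAs had 0 member probes past the threshold. With miR-421 the count of member probes was 2 as reported. It was 7 with no background correction, with the background subtracted and with a trended, robust variance; 4 with the scanner software's log ratio, and 4 of 9 genes in the authors' table; 1 with no filter; 5 of 10 with probes above background on all 6 arrays; 8 on the group's own 3 arrays; and 1 to 8 with an array left out. With median centring it stayed 2, with 1 higher and 1 lower. With miR-338-5p the count was 1 as reported; it was 0 with no background correction, the background subtracted, the scanner software's log ratio, the table of the authors, the robust variance and the group's own arrays, and 0 to 2 with an array left out. The metal handling count with miR-338-5p, 9 as reported, was 3 with median centring and with no filter, 5 with the scanner software's log ratio, 15 with the robust variance, 1 on the group's own arrays and 1 to 12 with an array left out. With miR-421, 15 as reported, it was 9 with median centring and 2 to 15 with an array left out. In the difference, 0 as reported, it was 1 with no background correction, with probes above background on all 6 arrays and with the robust variance. Causes were not tested.

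Of 546 values of single member probes under alternatives, 461 kept direction and side of the threshold, 18 lost the threshold, 43 gained it and 24 changed sign, none of these 24 past the threshold. For MT1M with miR-338-5p, near 0.01, these were -0.0441 with no background correction, -0.11 with it subtracted, -0.16 with median centring, and -0.0891 both with the software's ratio and in the authors' table. MT1F with miR-421, near 0, was 0.0445, 0.0144, 0.30 and 0.30 with no background correction, with it subtracted, with the software's ratio and in the authors' table. MT1G with miR-421 was -0.0295 with median centring. With an array left out, the miR-338-5p means ran from -0.48 to 0.40 for MT2A, -0.48 to 0.34 for MT1L, -0.52 to 0.34 and -0.84 to 0.37 for MT1E, -0.51 to 0.23 and -0.34 to 0.25 for MT1B and -0.62 to 0.35 for MT1M. With miR-421 they ran from -0.0142 to 0.0075 for MT1F and -0.37 to 0.39 for MT1G, and in the difference from -0.61 to 0.15 for MT1G and -0.22 to 0.0592 for MT1X.

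The labels share numbers 1 and 2 between the groups without saying that they pair. Deviations of same-numbered arrays from their group means correlated at -0.14 and -0.21 over all tested probes. With the numbers as a replicate block over 4 arrays, the difference had 0 member probes, 0 metal handling genes and 0 probes in all past the threshold. Dimness limits MT1F and MT1H most, and MT1X, MT1G and MT1M to a lesser degree. MT1M with miR-421, 1.17 as reported, was 1.62 with the background subtracted.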
